A study of Mus musculus with 9 samples.

Results

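The cytochrome P450 superfamily was examined as 119 bead-array probes of 77 genes, out of 45281 probes and 28891 genes on the array. Its members were the genes whose symbol is Cyp followed by a number, a letter and a number (116 probes of 76 genes in 31 subfamilies), together with the 3 probes of Por, which encodes NADPH-cytochrome P450 reductase. The bile acid and sterol enzymes Cyp7a1, Cyp7b1, Cyp8b1, Cyp27a1 and Cyp51 were left out. The samples were 3 kinds of mouse liver RNA on 3 arrays each. PV came from the glutamine synthetase subcompartment, the sheath of perivenous hepatocytes around the central vein, and NPV from zones 1+2 of the hepatic acinus, the hepatocytes nearer the portal tract. Both were lifted from tissue on a glass slide by laser capture microdissection, which cuts chosen cells out of a section, and SC was all the tissue scraped from a slide. The labels leave out the strain, sex and age of the mice, any treatment, and how PV cells were told from their neighbours. They also link no sample to an animal, so each p-value reflects the spread among these samples alone, and that spread may be technical.

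Cytochrome P450 enzymes are haem monooxygenases, most of them bound to the endoplasmic reticulum. Those in the endoplasmic reticulum need electrons that Por passes on from NADPH, and some also take an electron from cytochrome b5, whereas the mitochondrial members draw theirs from ferredoxin and its reductase. Families numbered 1 to 3 mainly oxidise drugs, toxins and steroids, family 4 mainly hydroxylates fatty acids and eicosanoids, and the higher-numbered families act on steroids, retinoids and vitamin D. In mouse liver many drug-oxidising P450s are known as pericentral, among them Cyp2e1, Cyp1a2 and Cyp2c29, whereas Cyp2f2 is known as a periportal enzyme.

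Levels are given as log2 intensity after background correction and quantile normalization, and a difference of 1 on this scale is a factor of 2. A level belongs to its own probe, so levels of different probes were not read as relative amounts of RNA. They were set side by side only to choose probes and genes, to describe brightness and to sum markers. A probe was taken as detected where the deposited detection p-value was under 0.05, and a gene was tested where a probe was detected on at least 3 of the 9 arrays. This held for 50 of the 77 member genes, 45 of them detected on all 9 arrays, among 13532 genes tested in all. The 3 arrays that share a label number are called a set. Arrays of the same number deviated together, so each comparison is also given from a fit with the number as a block (a paired fit). Between 16819 and 18721 probes were detected per array, and the number of arrays limits the precision. Set 3 stood apart: across genes, which are not independent replicates, its arrays correlated at r = 0.944 to 0.959 with those of sets 1 and 2, which correlated at 0.981 to 0.989 with each other. Glul, which encodes glutamine synthetase, checked the labels: it stood at 13.73, 12.81 and 12.88 in PV, 11.09, 10.94 and 10.48 in NPV and 11.58, 11.70 and 11.44 in SC. The 5 hepatocyte markers tested were detected on all 9 arrays, with summed linear intensities of 183730 to 188260 in PV, 187860 to 189830 in NPV and 180870 to 195690 in SC. These sums came mainly from Apoa1, Ttr and Serpina1a, which lay near each array's highest level of 16.03, so they say little about hepatocyte content. In PV minus NPV these 3 differed by -0.02, -0.02 and -0.04, and Apob by 0.05. Alb, far below the top, differed by -0.52 (paired adjusted p = 0.569, limma). Whether the scanner's range held the bright markers level was not tested.

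PV was first set against NPV, the comparison named in the study's design. The P450 family did not move as a whole. Of the 50 genes tested, 27 (54%) were higher and 23 lower in PV on average, where 50.4% of all genes were higher. The median difference of PV minus NPV was 0.022 log2 units, against 0.0014 over all genes tested. In the fit without the block no member passed an adjusted p of 0.05, where 0.0222% of all genes did, and each member's adjusted p was 0.9999 (limma). In the paired fit 1 member passed, Cyp2c55, higher in PV, a background of 0.318%.

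At an unadjusted p under 0.05 the counts were larger. Without the block 2 members were higher in PV (background 1.34%) and 2 were lower (background 0.909%). In the paired fit 14 of 50 members (28%) were higher, where 4.91% of all genes were, and 7 (14%) were lower, where 4.46% were. The direction was the same in all 3 sets for 14 members higher in PV (28%, background 16.2%) and for 10 lower (20%, background 17.3%). The groups did not overlap for 3 members higher in PV, Cyp1a2, Cyp2c29 and Cyp2c37, and for 3 lower, Cyp2f2, Cyp39a1 and Cyp4b1, which is 6% of members in each direction, where 2.93% of all genes were higher and 2.93% lower without overlap. Without set 3 no member passed the adjusted threshold in either limma fit (background 0.17% without the block and 0.259% paired), and at an unadjusted p under 0.05 the paired fit then had 8 members higher (background 5.1%) and 6 lower (background 3.29%). With 3 arrays against 3 an exact permutation test without pairing cannot give a p under 0.1. Exchanging labels only within sets allows fewer arrangements, so the limit for a paired permutation test is higher.

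**Figure D1:**
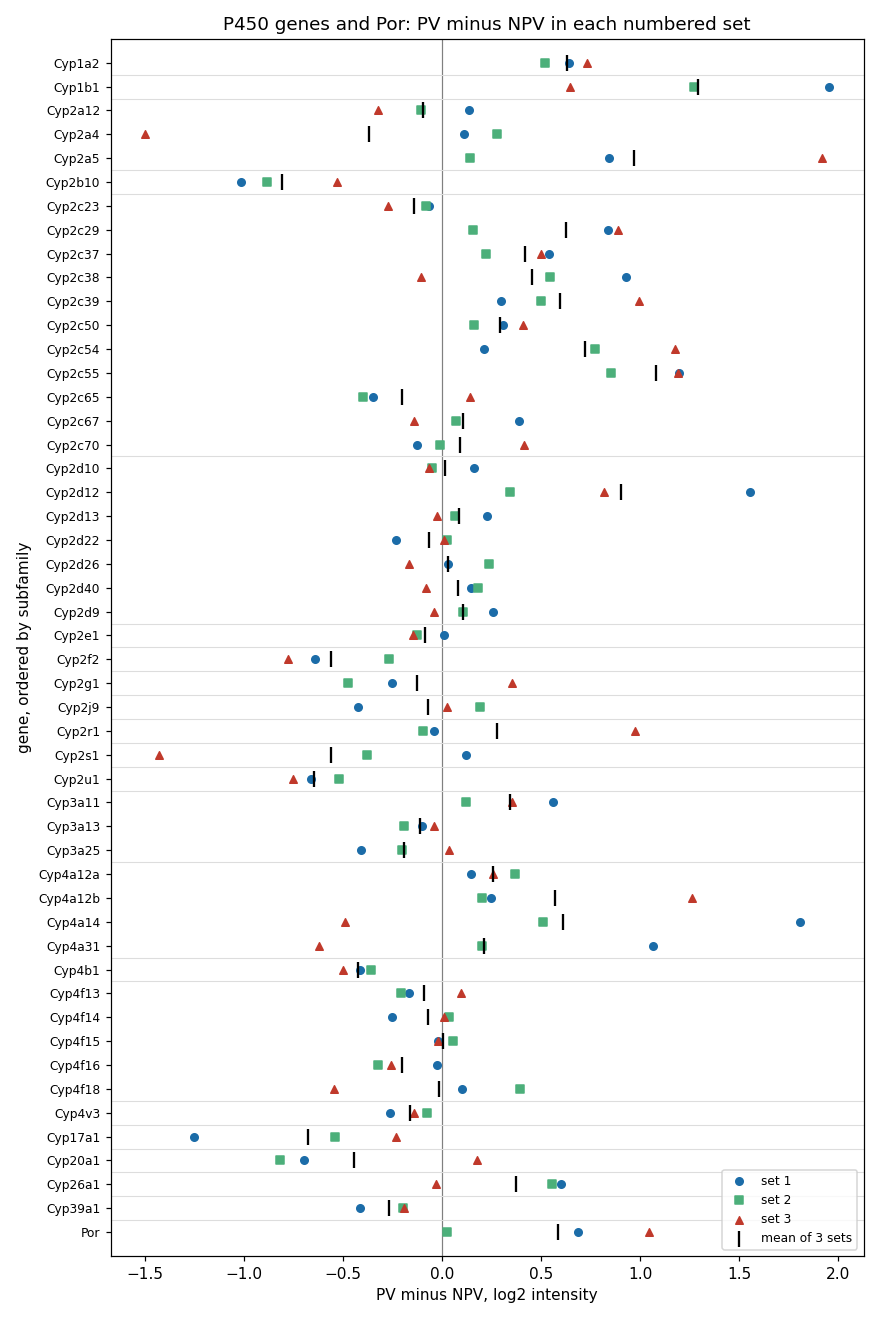
Difference of PV minus NPV in log2 intensity (horizontal axis) for each of the 50 members tested, Por included, ordered by subfamily, with a marker for each numbered set and a black bar for the mean of the 3 sets. Cyp1a2, Cyp2c29, Cyp2c37 and Cyp2c55 lie right of 0 in every set, Cyp2b10, Cyp2f2 and Cyp4b1 lie left of 0 in every set, and Cyp2e1 lies near 0.

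Cyp2c55 oxidises arachidonic acid and is known in mice as a gene induced through the nuclear receptors CAR and PXR. It stood at 9.41, 9.14 and 7.02 in PV (sets 1, 2 and 3), 8.21, 8.28 and 5.83 in NPV and 8.66, 8.22 and 6.39 in SC. Within every set PV was the highest of the 3, but all 3 arrays of set 3 lay below the other 6, so the groups overlapped. Cyp2c55 rose 2.12-fold in PV against NPV (log2 difference 1.08, SE 0.139, paired limma fit, adjusted p = 0.0187), with set differences of 1.20, 0.86 and 1.19. Without the block the SE was 0.899 and the adjusted p 0.9999. Without set 3 the difference was 1.03 and the paired adjusted p 0.160 (limma). With single arrays left out the paired difference ran from 0.99 to 1.23. Its adjusted p then missed the threshold without PV array 1 (0.154), 2 (0.109) or 3 (0.0542) and without NPV array 1 (0.165) or 3 (0.120), and ran from 0.0216 to 0.0440 without NPV array 2 or any SC array (limma).

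Cyp1a2, the caffeine- and arylamine-oxidising enzyme of hepatocytes and a target of the aryl hydrocarbon receptor, stood at 14.50, 14.60 and 14.99 in PV, 13.86, 14.07 and 14.26 in NPV and 14.53, 14.16 and 14.42 in SC. Every PV array lay above every NPV array. The difference was 0.63 (1.55-fold, paired SE 0.146, adjusted p = 0.203, limma), and the other Cyp1a2 probe differed by 0.59. Cyp2c29, a phenobarbital-inducible enzyme, stood at 13.99, 13.33 and 13.40 in PV, 13.15, 13.17 and 12.51 in NPV and 13.38, 13.50 and 12.55 in SC. Its PV arrays also lay above its NPV arrays, by 0.63 on average (1.54-fold, paired SE 0.187, adjusted p = 0.319, limma). Cyp2f2, which oxidises naphthalene in mice, ran the other way: it stood at 14.66, 14.92 and 14.64 in PV, 15.30, 15.19 and 15.42 in NPV and 15.22, 15.27 and 15.04 in SC. All PV arrays lay below all others. Cyp2f2 was 1.48-fold lower in PV than in NPV (log2 difference -0.56, paired SE 0.133, adjusted p = 0.216, limma). None of these 3 passed the adjusted threshold.

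**Figure D2:**
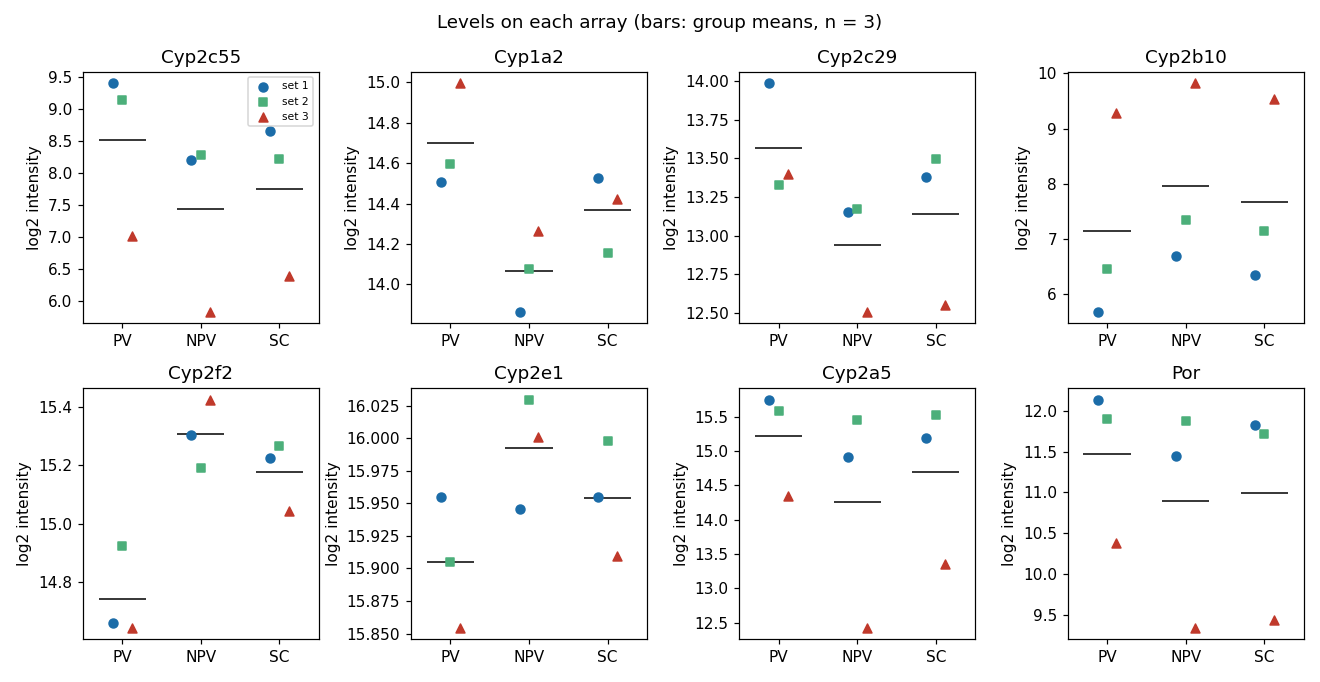
Log2 intensity (vertical axis, a separate scale in each panel) of 8 members on each array by group, with PV left, NPV in the middle and SC right, marker shape and colour for the set and a bar for the mean of 3 arrays. Cyp1a2 and Cyp2c29 are highest and Cyp2f2 is lowest in PV, Cyp2e1 spans less than 0.2 log2 units, and set 3 lies low for Cyp2c55, Cyp2a5 and Por and high for Cyp2b10.

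The promoters of these 4 genes are shown because Cyp2c55 passed the adjusted threshold in the paired fit, though not without the block. The other 3 are those of the pericentral and periportal genes named at the start whose groups did not overlap. Cyp2c37, Cyp39a1 and Cyp4b1 did not overlap either, but their promoters were not searched. The 4 windows are thus no basis for comparing pericentral with periportal genes. The sequences are RefSeq's, on build GRCm38.p6, from 250 bases before to 50 after the start of each gene, and 37 of the 50 tested members have such an entry. They were searched on both strands for the TCF/LEF core CTTTGA (16% of 32841 promoters hold it), the core of the HNF1 site GTTAAT (7.1%), the core of the xenobiotic response element GCGTG (32.4%) and the TATA box TATAAA (13.6%), and matches are in capitals. The windows are chr19:39006769-39007068 on the plus strand for Cyp2c55, chr9:57683606-57683905 on the minus strand for Cyp1a2, chr19:39286835-39287134 on the plus strand for Cyp2c29 and chr7:27119705-27120004 on the plus strand for Cyp2f2.
Cyp2c55: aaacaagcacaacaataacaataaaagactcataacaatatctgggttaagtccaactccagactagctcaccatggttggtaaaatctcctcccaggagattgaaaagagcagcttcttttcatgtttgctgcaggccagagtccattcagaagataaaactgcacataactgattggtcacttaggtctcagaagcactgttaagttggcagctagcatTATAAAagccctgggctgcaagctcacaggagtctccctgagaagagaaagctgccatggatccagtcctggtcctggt
Cyp1a2: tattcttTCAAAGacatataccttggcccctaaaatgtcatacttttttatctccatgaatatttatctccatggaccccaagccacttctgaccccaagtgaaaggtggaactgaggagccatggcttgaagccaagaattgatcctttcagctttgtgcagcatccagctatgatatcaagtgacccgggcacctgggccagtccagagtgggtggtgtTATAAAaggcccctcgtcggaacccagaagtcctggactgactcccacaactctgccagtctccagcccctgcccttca
Cyp2c29: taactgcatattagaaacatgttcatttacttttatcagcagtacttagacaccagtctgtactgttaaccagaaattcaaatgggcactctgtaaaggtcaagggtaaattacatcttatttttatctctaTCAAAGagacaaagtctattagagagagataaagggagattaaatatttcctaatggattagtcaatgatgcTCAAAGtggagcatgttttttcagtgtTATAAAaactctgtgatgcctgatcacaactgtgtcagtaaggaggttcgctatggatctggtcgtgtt
Cyp2f2: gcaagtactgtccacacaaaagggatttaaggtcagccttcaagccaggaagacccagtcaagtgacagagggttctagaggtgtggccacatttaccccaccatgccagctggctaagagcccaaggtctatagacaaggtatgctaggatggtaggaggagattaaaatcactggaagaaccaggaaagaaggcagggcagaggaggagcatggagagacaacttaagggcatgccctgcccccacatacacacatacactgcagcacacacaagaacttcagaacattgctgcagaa

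A TATA box stood in the Cyp2c55, Cyp1a2 and Cyp2c29 windows, 1 in each. The TCF/LEF core, printed as its reverse complement TCAAAG, stood 1 time in the Cyp1a2 window and 2 times in that of Cyp2c29. The Cyp2f2 window held none of the 4 motifs. These are matches of letters in short windows and not measured binding.

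The Cyp2c subfamily, the largest on the array with 13 genes, leaned to PV. Of 11 genes tested 9 were higher in PV, where 50.4% of all genes were. In all 3 sets 6 of them were higher (background 16.2%) and 1 gene, Cyp2c23, was lower (background 17.3%). The median difference was 0.42, with set medians of 0.31, 0.16 and 0.41, and it was 0.29 with the authors' processed values and 0.62 with median scaling, which put the median of all genes at 0.30. Without set 3 the median was 0.38. Besides Cyp2c55 and Cyp2c29, 5 Cyp2c genes were higher in PV at an unadjusted paired p under 0.05 (background 4.91%). They were Cyp2c37, Cyp2c38, Cyp2c39, Cyp2c50 and Cyp2c54, and none of the 5 passed the adjusted threshold. Cyp2c39 was detected on 3 PV arrays but on 1 NPV and 1 SC array, and lay near the detection limit in sets 1 and 2. Its place among the tested genes thus leans on PV and set 3. Cyp2c38 was detected on no array of set 3, where it differed by -0.11. Cyp2c37 stood at 15.22, 15.18 and 15.50 in PV, 14.68, 14.96 and 15.00 in NPV and 15.05, 15.23 and 15.18 in SC. Its PV arrays lay above all NPV arrays, by 0.42 (1.34-fold, paired SE 0.120, adjusted p = 0.302, limma), and its other probes differed by 0.40 and 1.06. Cyp2c50 differed by 0.29 (other probes 0.37 and 0.42), Cyp2c54 by 0.72, and Cyp2c39, known to hydroxylate retinoic acid, by 0.60. The closely related Cyp2c37, Cyp2c50 and Cyp2c54, and likewise Cyp2c67 and its neighbours, may share hybridisation, which was not tested.

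Other Cyp2c members lay near 0 or below. Cyp2c70, which makes muricholic acids in mice, differed by 0.09 (paired SE 0.133), and Cyp2c67 by 0.11 (paired SE 0.130, other probe 0.29). Cyp2c23, an arachidonic acid epoxygenase that the array lists as Cyp2c44, differed by -0.14 (paired SE 0.112) and Cyp2c65 by -0.20 (paired SE 0.140). The other Cyp2c23 probe, dim and detected on 4 arrays, differed by -0.50. Within the subfamily the differences, by the 1 probe taken for each gene, therefore ran from -0.20 to 1.08.

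In the Cyp2a subfamily the 3 genes did not share a direction. Cyp2a5, the coumarin hydroxylase of mouse liver, stood at 15.75, 15.59 and 14.34 in PV, 14.91, 15.45 and 12.42 in NPV and 15.20, 15.53 and 13.35 in SC. PV was the highest of the 3 in every set, while set 3 lay below the other arrays in each group. The difference of PV minus NPV was 0.97 (1.96-fold, paired SE 0.273, adjusted p = 0.300, limma), and the 4 other Cyp2a5 probes differed by 0.50, 1.12, 1.40 and 1.18. Its near-identical neighbour Cyp2a4, a steroid hydroxylase, differed by -0.37 (paired SE 0.316), and by 0.19 without set 3. The subfamily median was -0.099 and 0.19 without set 3. The 2 genes can cross-hybridise. Cyp2a12 differed by -0.10.

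Cyp2b10, the phenobarbital- and CAR-inducible P450, was the only one of the 5 Cyp2b genes that was tested. It stood at 5.68, 6.45 and 9.29 in PV, 6.70, 7.34 and 9.82 in NPV and 6.36, 7.14 and 9.53 in SC. PV was the lowest of the 3 in every set, and set 3 lay far above the others in each group. It was 1.75-fold lower in PV than in NPV (log2 difference -0.81, paired SE 0.132, adjusted p = 0.0644, limma; without the block SE 1.19). With the authors' processed intensities the paired fit gave -0.54 and an adjusted p of 0.0154, and without PV array 3 it gave -0.95 and 0.0332 (limma).

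The Cyp2d subfamily showed little difference between PV and NPV. Of 7 genes tested 6 were above 0 on average (background 50.4%), with a median of 0.08. Relative to all genes the median was -0.0455 with median scaling. The exception was Cyp2d12, which stood at 6.84, 6.72 and 8.06 in PV, 5.29, 6.38 and 7.25 in NPV and 5.67, 6.16 and 7.84 in SC. PV was the highest in every set, by 0.90 over NPV (1.87-fold, paired SE 0.228, adjusted p = 0.241, limma), and the groups overlapped. The other 6 lay between -0.07 and 0.11, among them the male-biased steroid hydroxylase Cyp2d9 at 0.11 (paired SE 0.116) and Cyp2d10 at 0.01 (paired SE 0.110). For Cyp2d22 and Cyp2d26 other probes had the opposite sign, at 0.46 for Cyp2d22 and at -0.21 and -0.31 for Cyp2d26.

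Cyp2e1, the ethanol- and acetaminophen-oxidising P450 and a textbook pericentral gene, showed no detectable difference. It stood at 15.955, 15.905 and 15.854 in PV, 15.946, 16.030 and 16.001 in NPV and 15.955, 15.998 and 15.910 in SC. The groups overlapped, with a difference of -0.09 in PV against NPV (paired SE 0.105, adjusted p = 0.850, limma). Its signal lay near the top of the scale: raw intensities were 50327, 69466 and 69373 in PV, 50673, 70015 and 69838 in NPV and 52376, 69884 and 69233 in SC, where the brightest probe of an array read 57673 to 70935. The rank of the Cyp2e1 probe from the brightest ran from 1 to 30 among all probes. Whether the scanner's range held its differences down was not tested.

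In all, 12 probes of 11 P450 genes reached at least 0.5 of the brightest intensity of an array. Cyp2e1 and Cyp2d9 did so on all 9 arrays, Cyp2c50 and Cyp2c70 on 6, Cyp2a5, Cyp2f2 and each of 2 Cyp2c37 probes on 4, Cyp1a2 and Cyp2d10 on 2, and Cyp2c67 and Cyp4a12a on 1. Per array this came to 3, 10 and 10 member probes in PV, 2, 6 and 4 in NPV and 3, 8 and 6 in SC. Array 1 had the fewest in each group. The bright Cyp2c37 probes differed by 0.42 and 0.40 between PV and NPV, against 1.06 for the dim probe of the same gene, which stood at 9.23, 8.59 and 10.70 in PV, 8.04, 8.03 and 9.26 in NPV and 8.56, 8.46 and 9.82 in SC. This dim probe was higher in PV than in NPV within every set, but the groups overlapped, and its adjusted p was 0.0567 in the paired limma fit over every probe. The part of brightness in that gap was not tested.

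**Figure D3:**
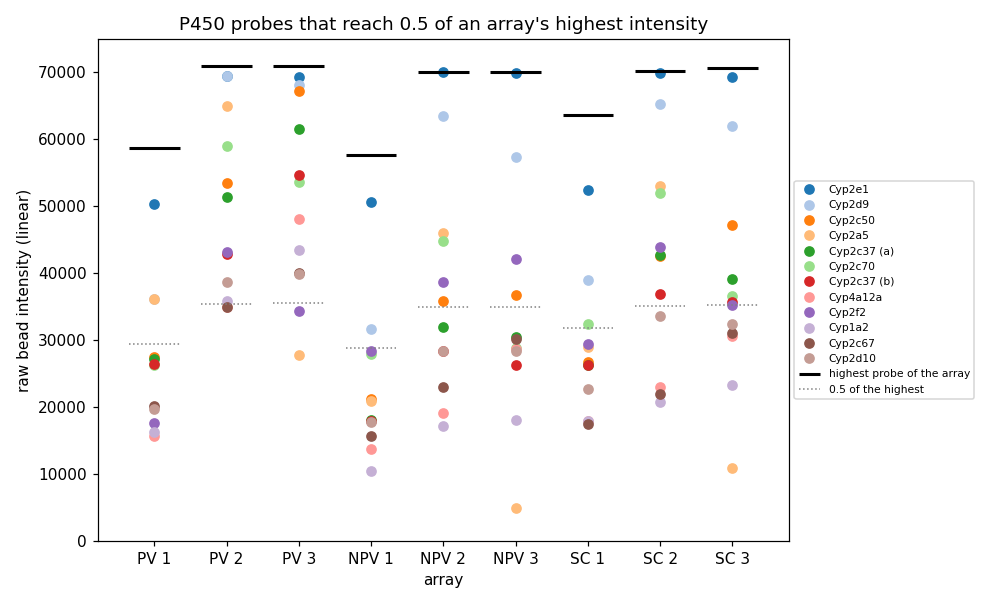
Raw bead intensity on a linear axis for the 12 P450 probes that reached 0.5 of an array's highest value on any array, by array, with a solid line at the highest probe of each array and a dotted line at 0.5 of it. Cyp2e1 lies at or near the solid line on the arrays numbered 2 and 3. On those numbered 1 it lies below the line, at 50327 to 52376, and the line itself is lower, between 57673 and 63572.

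Cyp3a and Cyp4 members showed smaller or less even differences. Cyp3a11, the main drug-oxidising Cyp3a enzyme of mouse liver and a PXR target, stood at 13.89, 13.27 and 13.81 in PV, 13.33, 13.14 and 13.46 in NPV and 13.21, 13.29 and 13.72 in SC. It was higher in PV than in NPV in every set, by 0.34 (1.27-fold, paired SE 0.150, adjusted p = 0.531, limma), with overlapping groups. Cyp3a13 and Cyp3a25 differed by -0.11 and -0.19, so the Cyp3a median was -0.11 over the 3 of 6 genes tested. With median scaling it was -0.11 relative to the median of all genes.

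The 4 Cyp4a genes, which hydroxylate fatty acids and arachidonic acid at the omega end, were all above 0 in PV minus NPV (background 50.4%). Their median was 0.41. The set medians were 0.66, 0.29 and -0.12, so set 3 did not share the direction. Cyp4a14, a fasting-induced target of PPARalpha, stood at 11.94, 12.20 and 9.13 in PV, 10.14, 11.69 and 9.63 in NPV and 11.39, 11.84 and 9.72 in SC. It differed by 0.61 on average but by 1.81, 0.51 and -0.49 in the sets (paired SE 0.350, adjusted p = 0.647, limma). Cyp4a31, of the same cluster, differed by 0.21 (1.07, 0.20 and -0.62 in the sets). Cyp4a12a and Cyp4a12b, near-identical male-biased genes that can cross-hybridise, were higher in PV in every set, by 0.26 and 0.57 on average (paired adjusted p = 0.578 and 0.449, limma).

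The Cyp4f subfamily, whose members inactivate leukotrienes, differed little: 1 of 5 genes tested was above 0 (background 50.4%) and the median was -0.070. With median scaling it was -0.0606 relative to that of all genes. Cyp4b1, which oxidises fatty acids and furan toxins, was lower in PV. It stood at 5.98, 6.09 and 6.21 in PV, 6.40, 6.45 and 6.71 in NPV and 6.16, 6.14 and 6.35 in SC. All PV arrays lay below all NPV arrays (log2 difference -0.43, 1.34-fold lower, paired SE 0.106, adjusted p = 0.241, limma). Cyp4v3, the mouse counterpart of the human fatty acid hydroxylase CYP4V2, differed by -0.16.

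Among the steroid, retinoid and vitamin D enzymes, Cyp17a1, the hydroxylase and lyase of androgen synthesis, stood at 7.73, 7.52 and 9.58 in PV, 8.98, 8.06 and 9.82 in NPV and 8.16, 8.08 and 9.12 in SC. It was lower in PV than in NPV in every set, by 1.60-fold (log2 difference -0.68, paired SE 0.228, adjusted p = 0.383, limma), with overlapping groups. Cyp39a1, an oxysterol hydroxylase, was detected on 6 arrays and stood at 5.06, 5.17 and 4.98 in PV, 5.48, 5.37 and 5.17 in NPV and 5.20, 5.19 and 5.20 in SC. Its PV and NPV arrays met without overlap, at a difference of -0.27 (paired SE 0.115, adjusted p = 0.516, limma), close to the lowest detected level of 5.05 to 5.27 per array. Cyp26a1, which breaks down retinoic acid, differed by 0.37 (0.60, 0.55 and -0.03 in the sets). Cyp2r1, the vitamin D hydroxylase of liver, differed by 0.28, and by -0.07 without set 3.

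Of the remaining genes, Cyp2u1, a fatty acid hydroxylase, differed by -0.65 and was lower in PV in every set (paired SE 0.183, adjusted p = 0.300, limma), while its other detected probe differed by 0.04. Cyp20a1, a P450 with no well-known substrate, differed by -0.45, and its other probe by 0.04. Cyp2g1, Cyp2j9 and Cyp4f16 differed by -0.13, -0.07 and -0.20. Cyp2s1, a P450 best known outside the liver, was detected on 3 arrays, 2 of them NPV. It differed by -0.56 (0.12, -0.38 and -1.43 in the sets).

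Cyp1b1, an oestrogen- and toxin-oxidising P450 known mainly from cells other than hepatocytes, had the largest difference of PV minus NPV among the members. It stood at 7.84, 6.86 and 5.35 in PV, 5.88, 5.59 and 4.71 in NPV and 5.32, 5.76 and 5.07 in SC, and was detected on 8 arrays. PV was the highest in every set, with differences of 1.96, 1.27 and 0.65 from NPV (mean 1.29, 2.45-fold, paired SE 0.336, adjusted p = 0.256, limma). Markers of other cells were measured beside it. Of 8 endothelial markers tested 7 were above 0 in PV minus NPV (median 0.57), where 50.4% of all genes were, and 1, Cdh13, passed the adjusted threshold in the paired limma fit (adjusted p = 0.0241). Vwf, Cdh13, Rspo3 and Wnt2 differed by 2.11, 1.50, 1.16 and 0.96, and Pecam1, Stab2, Cdh5 and Clec4g by 0.18, 0.11, 0.07 and -0.10. The groups overlapped in the list's summed linear intensities, which were 7163 to 9839 in PV, 6213 to 9197 in NPV and 7832 to 9994 in SC. This sum came mainly from Clec4g, which stood at 12.41 to 13.03, so it says little about the dimmer markers. Of 7 stellate cell and fibroblast markers 6 were above 0 (median 0.33) and none passed in either limma fit. Their sums, mainly of Dcn and Reln, were 11665 to 16189 in PV, 10611 to 12220 in NPV and 12152 to 14118 in SC. The 5 Kupffer cell markers had a median of 0.021, with sums of 2870 to 4190 in PV, 1588 to 4838 in NPV and 1876 to 4968 in SC. Of 5 cholangiocyte markers 2 were tested. Spp1 differed by only -0.02, and Sox9 by -0.74 (paired adjusted p = 0.300, limma). The part of these cells in the Cyp1b1 values was not tested, and in such bulk samples more cells of a type and more RNA per cell cannot be told apart.

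Por, which supplies electrons to the P450s of the endoplasmic reticulum, stood at 12.14, 11.90 and 10.38 in PV, 11.45, 11.87 and 9.34 in NPV and 11.83, 11.72 and 9.44 in SC. PV was the highest in every set, with differences from NPV of 0.69, 0.03 and 1.04, and the arrays of set 3 lay below all others. The mean difference was 0.59 (1.50-fold, paired SE 0.193, adjusted p = 0.376, limma). Another Por probe also differed by 0.59, and a dim probe by 0.17. Partners and regulators of P450s were tested for 15 genes. They were cytochrome b5 and its reductase, the Pgrmc proteins, the mitochondrial electron carriers, Alas1 and the transcription factors that drive P450 genes. Of these 15, 6 were higher in PV than in NPV (background 50.4%), with a median of -0.047. None of the 15 passed the adjusted threshold in either limma fit of any of the 3 comparisons. At an unadjusted p under 0.05 in the paired fit 1 of the 15 was higher in PV, where 4.91% of all genes were. It was Cyb5b, an outer mitochondrial cytochrome b5, which stood at 14.17, 14.00 and 14.11 in PV, 13.77, 13.68 and 13.75 in NPV and 13.90, 13.86 and 13.88 in SC. All its PV arrays lay above all others, by 0.36 over NPV (adjusted p = 0.310, paired limma fit). The receptor genes Nr1i2 (PXR), Nr1i3 (CAR) and Ppara differed by -0.12, 0.28 and 0.01.

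The comparisons with SC share the PV and NPV arrays used above, so they add no independent evidence. In PV minus SC no member passed the adjusted threshold in either limma fit, where 0.0813% of all genes did in the paired fit and 0% without the block. At an unadjusted p under 0.05 in the paired fit 5 members were higher in PV (Cyp1b1, Cyp2c38, Cyp2c55, Cyp2d12 and Por, background 3.33%) and 2 were lower (Cyp2b10 and Cyp2f2, background 2.88%). Without the block none was higher (background 0.769%) and 1 was lower (background 0.399%). The groups did not overlap for 3 members, all lower in PV: Cyp2f2, Cyp2d10 and Cyp39a1 (background 1.96%). Cyp2f2 differed by -0.43, but Cyp2d10 by only -0.08 and Cyp39a1 by -0.13. Cyp39a1 lay near the detection limit and was detected on 1 PV array. None was higher without overlap (background 1.74%). In all 3 sets 10 members were higher (background 11.1%) and 9 lower (background 12.7%). The median was 0.0045, against -0.0075 over all genes.

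Against SC, Cyp2c55 differed by 0.77 (1.70-fold, paired SE 0.139, adjusted p = 0.244, limma), Cyp1b1 by 1.30 (2.47-fold, paired adjusted p = 0.524) and Por by 0.48. Cyp2f2 differed by -0.43 (1.35-fold lower in PV, paired SE 0.133, adjusted p = 0.692, limma) and Cyp2b10 by -0.54. Cyp1a2 and Cyp2c29 differed by 0.33 and 0.43, with overlapping groups. In the Cyp2c subfamily 8 of 11 genes were above 0 in PV minus SC (background 48.3%), with a median of 0.15.

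In NPV minus SC no member passed the adjusted threshold in either limma fit, and no gene on the array did (background 0%). At an unadjusted p under 0.05 in the paired fit 2 members were higher in NPV, Cyp20a1 and Cyp4b1 (background 2.96%), and 2 were lower, Cyp2c37 and Cyp2c54 (background 3.67%). Without the block none was higher (background 0.569%) or lower (background 0.99%). Cyp4b1 was higher in NPV without overlap (0.30, background 1.89%) and Cyp2c37 lower (-0.28, background 2.32%). In all 3 sets 7 members were higher (background 12.7%) and 10 lower (background 15.1%), and the median was -0.013. Cyp1a2 differed by -0.30, Cyp2c29 by -0.20, Cyp2f2 by 0.13 and Cyp2e1 by 0.04, with overlapping groups in each. For all 4, the SC mean lay between those of PV and NPV. Cyp2s1 was detected on 2 NPV arrays, 1 PV array and no SC array. Its NPV mean lay at least 1.25-fold above that of SC, where the SC mean is replaced by each array's lowest detected level if that is higher. The groups overlapped, with set differences of -0.20, 0.46 and 1.26 (paired adjusted p = 0.814, limma). As the gene passed the detection filter mainly through NPV, these values do not establish a difference. Its measured means were 5.48 in NPV and 4.97 in SC.

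Set 3 differed from sets 1 and 2 by more than the groups differed from each other for many members. The 3 arrays of set 3, from PV, NPV and SC, all lay above the other 6 arrays for 13 members (26%, background 19%) and all below them for 7 (14%, background 18%). By 2-fold or more this held for 7 members above (14%, background 4.64%) and 7 below (14%, background 5.68%). The set is a number in the labels, and its arrays were labelled with the number after the letters, where the others carry it before them. The labels do not say what the number stands for, so these values are described without a test.

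**Figure D4:**
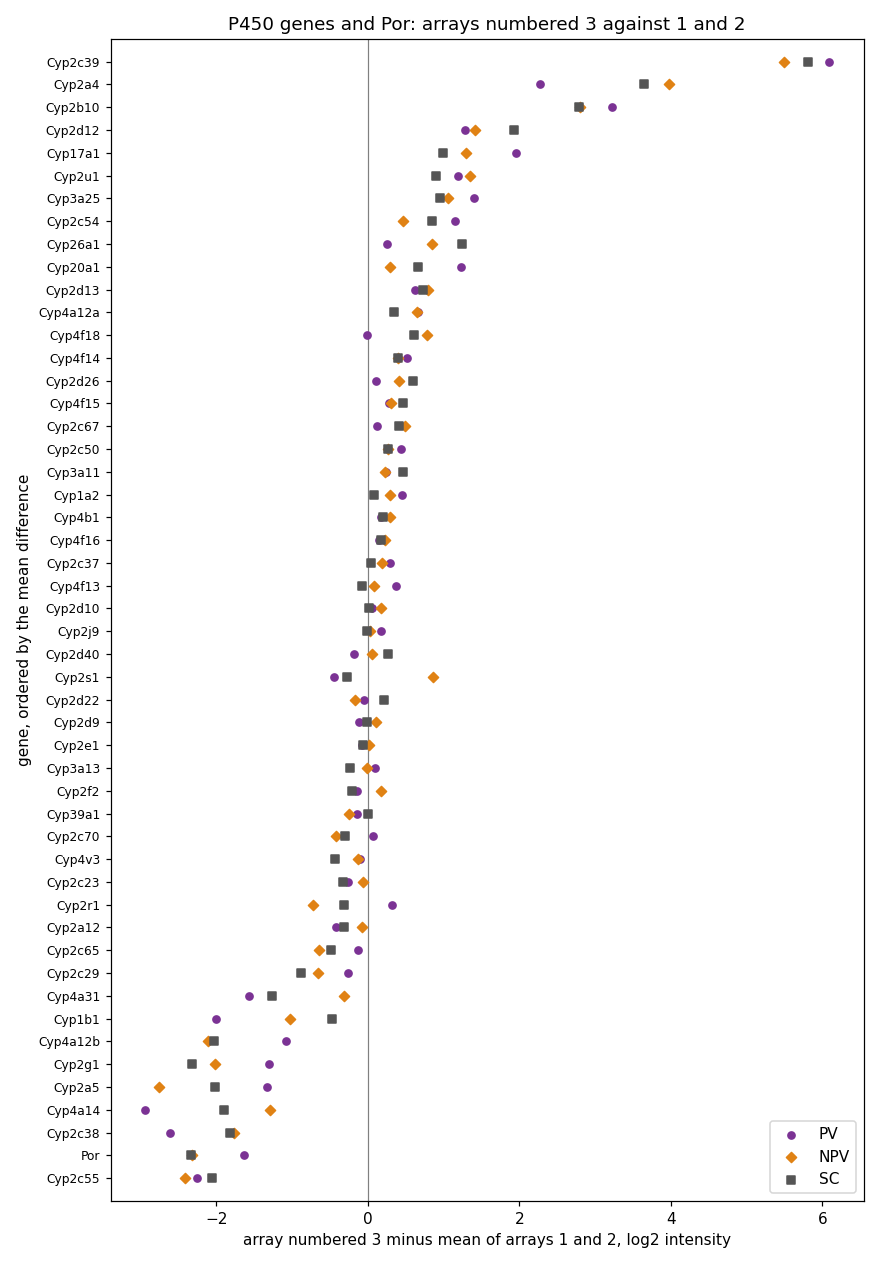
Log2 intensity of the array numbered 3 minus the mean of arrays 1 and 2 (horizontal axis) for each of the 50 members tested, within PV, NPV and SC, ordered by the mean. All 3 groups lie right of 0 for Cyp2c39, Cyp2a4 and Cyp2b10, at the far right, and left of 0 for Cyp2c55 and Por, at the far left. For Cyp2a4 the groups lie apart, at 2.28 in PV, 3.97 in NPV and 3.64 in SC.

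Cyp2c39 had the widest gap. It stood at 5.19, 5.21 and 11.29 in PV, 4.89, 4.71 and 10.29 in NPV and 4.83, 5.11 and 10.78 in SC. It was detected on all 3 arrays of set 3 and on 2 of the other 6, and averaged 5.80 log2 units more in set 3, a size that depends on the offset used for dim signals. Cyp2a4 stood at 5.97, 6.43 and 8.47 in PV, 5.86, 6.15 and 9.98 in NPV and 5.35, 6.12 and 9.38 in SC, a mean gap of 3.30. Cyp2b10, whose values stand above, had a gap of 2.94, Cyp2d12 1.54, Cyp17a1 1.42, Cyp2u1 1.15 and Cyp3a25 1.14. These 7 genes were thus higher in set 3 in each of the 3 groups.

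The members below the other arrays in set 3 were Cyp2c55 (gap -2.24), Por (-2.10), Cyp4a14 (-2.04), Cyp2a5 (-2.04), Cyp2g1 (-1.88), Cyp4a12b (-1.74) and Cyp2c38. Cyp2c38 was detected on all 6 arrays of sets 1 and 2 and on none of set 3, where it was at least 2.95-fold lower (measured means 4.58 in set 3 and 6.65 in the other sets). Near-identical genes went opposite ways: Cyp2a4 was higher and Cyp2a5 lower in set 3, and Cyp4a12a was higher (0.55) and Cyp4a12b lower. All 5 Cyp2a5 probes lay lower in set 3, with differences of -0.92, -1.80, -1.83, -2.04 and -2.17.

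Probes of 1 gene also differed in the size of the gap. The brightest Cyp2c50 probe was higher in set 3 by 0.32, and its 2 dimmer probes by 2.10 and 3.10. For Cyp2c37 the gaps were 0.17 and 0.16 for the bright probes and 1.44 for the dim one, for Cyp2c67 they were 0.34 and 1.85, and for Cyp1a2 0.27 and 0.74. The dimmest probe did not have the larger gap in every gene: for Cyp2u1 it was 0.44 against 1.15 for the brightest, for Cyp20a1 -0.05 against 0.73 and for Cyp2g1 -0.93 against -1.88. Of the 16 genes with more than 1 probe detected on at least 3 arrays, the dimmest probe had the gap of larger size in 11. Whether brightness or hybridisation of related transcripts accounts for part of it was not tested.

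Some partners and regulators of the P450s differed between the sets as well. Alas1, the rate-limiting enzyme of haem synthesis, stood at 15.63, 15.89 and 11.92 in PV, 15.77, 15.88 and 11.98 in NPV and 15.74, 15.88 and 12.05 in SC, which is 14.1-fold lower in set 3. Nr1i3, which encodes CAR, stood at 11.09, 10.93 and 12.24 in PV, 10.35, 10.80 and 12.26 in NPV and 10.70, 10.50 and 12.30 in SC, or 2.90-fold higher in set 3. Cebpa, a transcription factor of hepatocytes, was 2.59-fold higher. In none of the 3 genes did the arrays of set 3 overlap the others, and PV and NPV differed most for Nr1i3, by 0.28 on average. Over all genes 19% lay above and 18% below without overlap. These 3 had the widest gaps of the 15 partners and regulators tested. Set 3 overlapped the others for Cyb5a, Cyb5b, Cyb5r3, Fdx1, Fdxr, Ppara and Rxra. Without overlap, Pgrmc1, Pgrmc2, Arnt, Nr1i2 and Hnf4a had smaller gaps of 0.37, 0.53, 0.645, -0.55 and -0.47.

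The list of sex-biased liver P450s had 6 members tested. Of the female-biased genes Cyp2a4 and Cyp17a1 were detected on all 9 arrays, and Cyp2b9, Cyp2b13, Cyp3a16 and Cyp3a44 on none. The male-biased Cyp4a12a, Cyp4a12b, Cyp2d9 and Cyp2u1 were detected on all 9. Between PV and NPV, Cyp2a4 and Cyp17a1 differed by -0.37 and -0.68, Cyp4a12a, Cyp4a12b and Cyp2d9 by 0.26, 0.57 and 0.11, and Cyp2u1 by -0.65. None of the 6 passed the adjusted threshold.

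The 27 member genes that were not tested included 22 detected on no array and 5 detected on 1 or 2. No gene was tested in 9 of the 31 subfamilies, among them Cyp11a, Cyp11b, Cyp19a and Cyp21a, which make steroid hormones in adrenal gland and gonads, and Cyp24a and Cyp27b, which act on vitamin D in the kidney. Cyp1a1, the inducible relative of Cyp1a2, was detected on no array, nor were 5 of the 6 Cyp2j genes, Cyp2c40 and Cyp2c68. A probe below detection gives no level, and these genes are not called absent.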

How the data were processed

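RNA of 9 liver samples was hybridised to single-dye Illumina mouse arrays. Per the file headers, the deposited table held, for every probe on every array, the bead intensity with its detection p-value, not normalized between arrays. The submitters' processing notes list BeadStudio, version 3. A further table, with intensity values processed by the authors in a way not given in the sources used here, served only as an alternative.

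Background was corrected with limma's neqc (limma 3.58.1, R 4.3.3; offset 16, with the negative control signal estimated through those p-values), then quantile normalization and log2. Probes detected at p under 0.05 on at least 3 of 9 arrays were kept (19425, 74 of them members), and each gene took its probe with the highest mean. Symbols were updated through RefSeq, where 29370 probes matched by accession, 3678 by current symbol and 3273 by synonym, and 8960 kept the file's name. Symbols that end in a further letter, such as Cyp4a12a, were taken as members.

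The 3 group means were fitted in a limma model over 9 arrays, 2-sided, with Benjamini-Hochberg adjustment over all genes (6 residual degrees of freedom, median residual SD 0.295). The labels carry numbers 1 to 3 in each group. The deviations of arrays with the same number from their group means correlated at 0.581 to 0.885. Those of unlike numbers correlated at 0.324 to 0.418 between sets 1 and 2, and at -0.757 to -0.585 between set 3 and the others. The gap of set 3 enters all these values. The paired fit is therefore printed beside the results (4 residual degrees of freedom, median residual SD 0.175). The pairing comes from this check, not from the labels. The fit was tested on simulated data. SE and p are limma's, and a fold is 2 to the power of a log2 difference, so for dim genes the offset pulls it towards 1.

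Members, lists and tests were chosen with earlier results of these data known. The genes named were Cyp2e1, Cyp1a2, Cyp2f2, Cyp2c29 and Por, members past the adjusted threshold in any comparison and fit, the brightest and the smallest-p gene of each subfamily, genes near the top of the scale, and the sex-biased and fasting lists. Other members named were chosen after their values were seen. Alternatives were the block, every probe, other filters and offsets, no background correction, median scaling, the authors' values, and leaving out arrays.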

Additional observations from a re-analysis of the deposited data

How the results depend on the processing

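Values are log2 differences unless said to be counts, SE and p come from limma, and the block is the label number. In PV minus NPV 1 member passed with the block and with every probe tested and the block (0.318% of all genes and 0.329% of all probes), 4 passed with the authors' values and the block (0.695% of all genes; Cyp1a2, Cyp2b10, Cyp2c55 and Cyp2f2), and 9 with median scaling and the block (3.05% of all genes; Cyp1a2, Cyp1b1, Cyp2a5, Cyp2c29, Cyp2c37, Cyp2c54, Cyp2c55, Cyp2d12 and Por). Leaving out single arrays, with or without the block, gave 0 to 1 (0% to 0.473% of all genes). The 1 was Cyp2b10 with the block and without PV array 3, and Cyp2c55 otherwise. With median scaling the median over all genes became 0.296 in PV minus NPV, 0.151 in PV minus SC and -0.144 in NPV minus SC, and the members' medians to 0.261, 0.163 and -0.136. In PV minus SC 1 member passed with the authors' values and the block (0.229% of all genes; Cyp2c55) and 2 with median scaling and the block (0.377%; Cyp1b1 and Cyp2c55). In NPV minus SC the count was 0 under every alternative, and the block changed no other call. Over its alternatives in PV minus NPV the adjusted p of Cyp2c55 ran from 0.000422 to 1. Median scaling with the block, every probe with the block and the block with each array left out were chosen after seeing the data.

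The members' median in PV minus NPV was 0.093 without set 3, and -0.0166 to 0.087 with single arrays left out. In PV minus SC it was 0.0572 without set 3, 0.0533 with every probe tested, and -0.0419 to 0.0835 with single arrays left out. In NPV minus SC it was -0.0575 to 0.0134 with single arrays left out. Of 52 gene differences 34 kept their sign under every alternative. With median scaling Cyp2g1 (0.185), Cyp2j9 (0.293), Cyp4f14 (0.200), Cyp4f16 (0.1) and Cyp4v3 (0.0916) turned above 0 in PV minus NPV but stayed under the shift of all genes. Without set 3 Cyp2a4 (0.193), Cyp2c70 (-0.0692) and Cyp2r1 (-0.07) changed sign.

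With single arrays left out, with or without the block, PV minus NPV ran from -1.13 to 0.952 for Cyp2a4, -1.88 to 0.124 for Cyp2b10, -0.0046 to 0.269 for Cyp2c67, -0.0496 to 0.192 for Cyp2c70, -0.0549 to 0.0727 for Cyp2d10, -0.801 to 0.434 for Cyp2g1, -0.261 to 0.179 for Cyp2j9, -6e-04 to 0.469 for Cyp2r1, -0.134 to 0.944 for Cyp4a12b, -0.158 to 0.737 for Cyp4a31, -0.243 to 0.0677 for Cyp4f14 and -0.190 to 1.13 for Por. PV minus SC ran from -1.61 to 0.391 for Cyp2b10 and from -0.303 to 1.02 for Por. NPV minus SC ran from -0.496 to 0.0169 for Cyp2c29 and from -0.888 to 0.666 for Por. Without the block, leaving out an array of set 3 unbalances groups that differ by set, which by construction moves genes with a wide gap between sets. Otherwise the cause was not tested. Requiring detection on all arrays leaves some of the dim genes without a value. Genes near detection, such as Cyp39a1 and Cyp2s1, are limited by signal over background. Cyp2e1 and other bright genes lie near the top of the scale, and its part in their values was not tested.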
